A study of Rattus norvegicus with 6 samples.

Results

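Interferon-stimulated genes are the genes that a cell switches on when an interferon binds its receptors. A fixed list of 51 genes, which counts the 4 chains of the interferon receptors among its members, was followed in transplanted rat hearts. Its members were taken by gene symbol from the deposited expression table, in which all 51 were found among 22250 genes, and all 51 held enough reads to be tested. The hearts came from wild-type Sprague-Dawley donors that were young (10 weeks) or aged (1 year), with 3 donor hearts in each group. Every heart in both groups had been arrested and kept cold in University of Wisconsin solution, an organ storage fluid, and then placed in a young recipient rat by heterotopic transplantation. In that operation the graft is perfused with blood but does not carry the recipient's circulation, which limits it as a model of a working transplant. Left ventricular myocardium was taken on day 1 after the operation and its polyadenylated RNA was sequenced. The comparison addressed how the age of the donor bears on these genes in the graft. Hearts are named by donor group and by the animal number in the labels, which were young 3, 13 and 15 and aged 3, 4 and 7.

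Type I interferons bind a receptor made of IFNAR1 and IFNAR2, and interferon gamma binds IFNGR1 and IFNGR2. Both receptors act through Janus kinases and STAT proteins. Proteins activated by the type I receptor bind the interferon-stimulated response element (ISRE), and those activated by interferon gamma bind the gamma-activated site (GAS). The induced proteins detect viral nucleic acid, degrade RNA, block translation or entry, and feed back on the pathway. In injured heart muscle, interferon-stimulated genes are known to be expressed by infiltrating myeloid cells as well as by resident cells.

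DNA elements through which interferons act on these genes could be looked for in reference sequence. RefSeq promoters of the GRCr8 build, each running from 250 bases before a gene's start to 50 bases after it, matched 38 of the 51 members by symbol. These coordinates are not those of the deposited table, which uses Rnor_6.0. The ISRE core was searched as GAAA, any 2 bases and GAAA again, on both strands (TTTC, any 2 bases and TTTC on the other one), and it was present in 23 of the 38 promoters (60.5%), against 1312 of all 33469 promoters (3.92%). The GAS core, TTCNNNGAA, reads alike on both strands and was present in 10 of the 38 (26.3%), against 8.87% of all promoters. Both cores were present in 5 members, and they overlapped in 1 of these, Bst2. A match describes the letters in the window and not a bound site. The windows below show a matched stretch on the gene's own strand, with a core in capitals. They come from members that were higher in aged donor hearts (Oas3, Ifit3), lower (Ifi44) or past the limits in neither direction (Irf7, Gbp2, Oas1a). Oas1a and Ifi44 each held 2 matches, and only the first is in capitals. The second match of Oas1a overlaps the first inside the window shown, and that of Ifi44 lies outside its window. The cores are alike because the search asked for 8 of their 10 letters, so their likeness is not a result.
Oas3, chr12:41439627-41439656, plus strand: gcagagaggaGAAAACGAAAgtgaatgatc
Ifit3, chr1:241527272-241527301, plus strand: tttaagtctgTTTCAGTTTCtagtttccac
Ifi44, chr2:243303847-243303876, minus strand: gcacactgagTTTCAGTTTCatttcccagg
Irf7, chr1:205800073-205800102, minus strand: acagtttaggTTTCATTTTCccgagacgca
Gbp2, chr2:234005686-234005715, plus strand: agttttttagTTTCACTTTCattgtcttaa
Oas1a, chr12:41330415-41330444, plus strand: cccctctcggGAAATGGAAActgaaaatct
Among the 23 members with an ISRE core, 2 were higher and 1 was lower in aged donor hearts, with a median log2 fold change of 0.07 (0.43 without young heart 15, which stood apart as described next). Among the 15 matched members without one, 2 were higher and 2 were lower, with a median of 0.46 (0.82 without young 15). The higher members without a core were the receptor chains Ifngr1 and Ifngr2, and Ifnar1 and Ifnar2 were in this class too. Mx2, Ddx58, Usp18 and Adar, which were lower, had no matched promoter and are in neither class. Over all genes tested, 13.2% were higher and 19% were lower.

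The libraries held 21457509 to 24560869 counted reads, and expression is given as CPM, the reads of a gene scaled to the size of its library, with library sizes corrected by edgeR's TMM factors. Young heart 15 stood apart from the other young hearts. Transcripts of the mitochondrial genome made up 11.9% of its reads, against 21.7% in young 3 and in young 13 and 6.57% to 10.3% in the aged hearts. The summed CPM of 10 cardiomyocyte markers was 89763 and 99179 in young 3 and 13, 12153 in young 15 and 584 to 6979 in the aged hearts, and 5 of the 10 were lower in aged donor hearts. The summed CPM of 10 neutrophil markers was 17.3 and 18.2 in young 3 and 13, 163 in young 15 and 402 to 1516 in the aged hearts, and 8 of the 10 were higher. The summed CPM of 12 macrophage markers was 415 and 383 in young 3 and 13, 2565 in young 15 and 3983 to 7694 in the aged hearts, and 5 of the 12 were higher. In whole tissue, fewer cells of a type and less RNA per cell cannot be told apart. The part of cell makeup in the results that follow was not tested, and values without young 15 are given beside many of them.

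Of the 51 interferon-stimulated genes, 11 passed the study's limits between aged and young donor hearts, and these went both ways. The study's limits ask for a fold change over 1.5 or under 0.67 and a p-value below 0.05 before adjustment, which came here from edgeR's quasi-likelihood test. By these limits 4 members were higher in aged donor hearts (Ifngr1, Ifngr2, Oas3 and Ifit3) and 7 were lower (Mx2, Cmpk2, Ifi44, Herc6, Ddx58, Usp18 and Adar). The 4 that were higher were 7.84% of the list, against 13.2% of all 13784 genes tested. The 7 that were lower were 13.7% of the list, against 19% of all genes. With all hearts, the list thus held no larger share of called genes than the whole table in either direction. With Benjamini-Hochberg adjustment over all genes tested, 0 members and 0% of all genes had an adjusted p-value under 0.05 in edgeR, against 11 members and 34.3% of all genes at an unadjusted p-value under 0.05. The adjusted p-values of the 11 called members ran from 0.092 to 0.126 in edgeR. DESeq2 put 9 members under an adjusted p-value of 0.05, against 26.1% of all genes, and limma-voom put 0 members and 0% of all genes there, with 14 members (27.5%) and 35.4% of all genes under 0.05 before adjustment.

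The groups did not overlap in 8 members with the aged hearts above the young (15.7%, against 21% of all genes) and in 10 members with the aged hearts below (19.6%, against 20.6%). With 3 hearts against 3, the smallest two-sided p-value an exact permutation test can reach is 0.1, and each of these members reached it. A positive log2 fold change was seen in 30 members (58.8%, against 50.7% of all genes). Over the 51 members the median was 0.09, with quartiles of -0.42 and 0.47, beside a median of 0.02 over all genes tested. Scaling by library totals alone raised the median of all genes to 0.46 and that of the list to 0.48, and then 8 members were higher (15.7%, against 22.8% of all genes) and 1 was lower (1.96%, against 10.5%). Under that scaling Ifnar1, Ifnar2, Samhd1 and Isg20 joined the higher members, and Mx2 was the only lower member left.

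**Figure D1:**
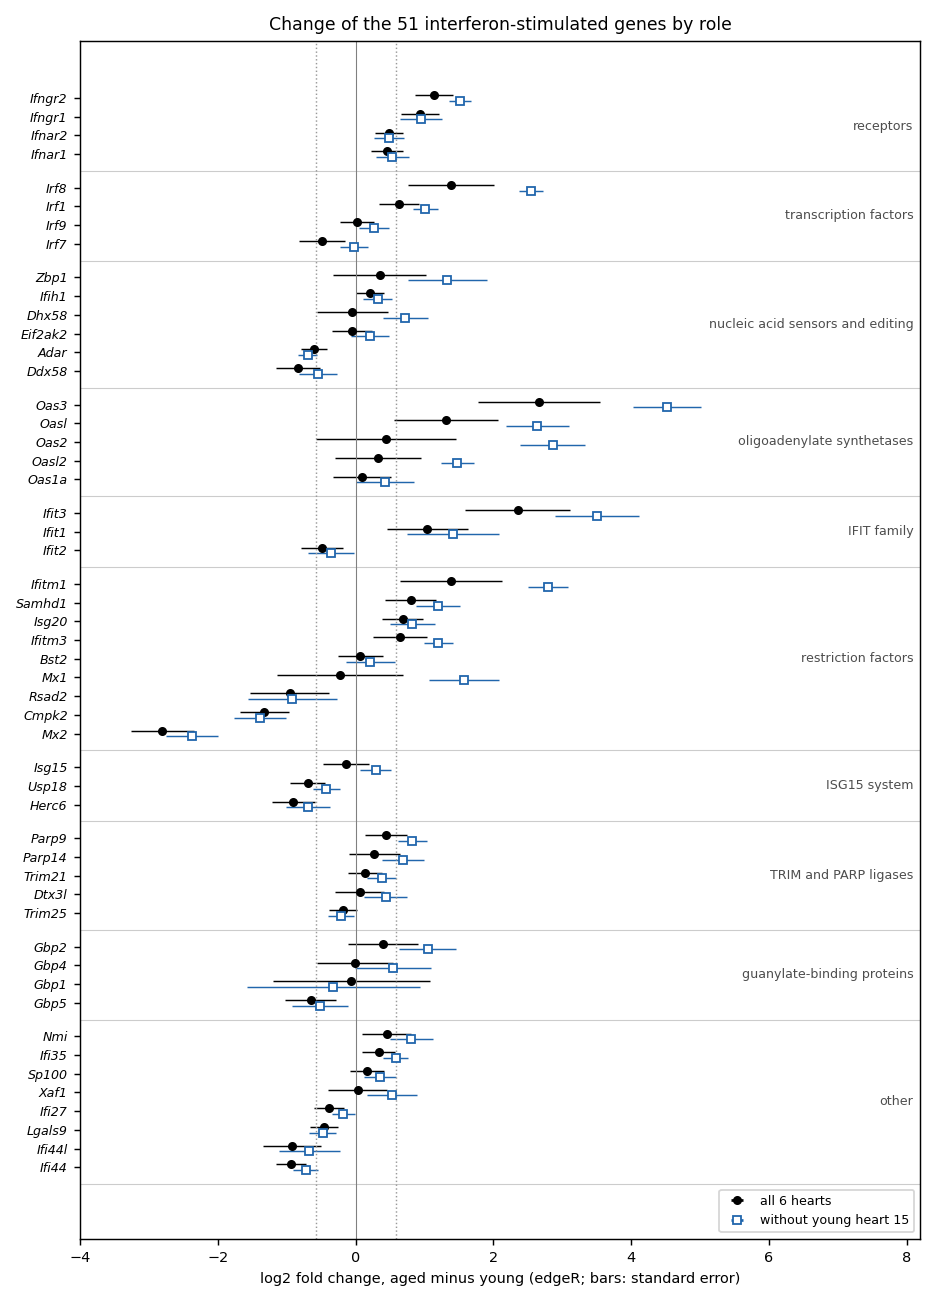
Log2 fold change of each of the 51 interferon-stimulated genes (x axis, aged minus young donor hearts, edgeR, bars are standard errors), in blocks by role, with dotted lines at the fold limits of 1.5 and 0.67. Filled black circles are the fit with all 6 hearts and open blue squares the fit without young 15. In the circles all 4 receptors lie to the right of 0 and all 3 genes of the ISG15 system to the left, where Isg15 itself moves to the right of 0 when libraries are scaled by their totals or young 15 is left out.

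Transcripts of the interferons themselves were almost absent. The 12 interferon genes in the table, which included Ifnb1, Ifng and members of the alpha and lambda families, had 0, 0 and 2 reads in all in young 3, 13 and 15, and 2, 2 and 3 reads in aged 3, 4 and 7. No read was counted for 9 of the 12 in any heart, Ifnb1 among them. Ifng, the ligand of the type II receptor, did not exceed 0.115 CPM in any heart. A count of 0 allows up to 3 reads, or 0.0985 to 0.191 CPM depending on the library, which is an upper limit on the level of a ligand with no read.

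All 4 receptor transcripts had positive log2 fold changes and no overlap between the groups. Over all genes, 50.7% had a positive log2 fold change and 21% had the aged hearts above the young without overlap. Ifngr1, the ligand-binding chain of the interferon gamma receptor (ENSRNOG00000012074, chromosome 1, 15062432 to 15080907, plus strand), was at 132, 136 and 126 CPM in young 3, 13 and 15 and at 345, 187 and 222 CPM in aged 3, 4 and 7. All 3 aged hearts were above all 3 young hearts, and the young hearts lay close together, young 15 included. For Ifngr1 the log2 fold change was 0.94 ± 0.28 (SE, n = 3 hearts per group) and the adjusted p-value was 0.094 in edgeR. Ifngr2, the signalling chain of the same receptor (ENSRNOG00000002032, chromosome 11, 31694339 to 31712611, plus strand), was at 32.9, 35.5 and 61.2 CPM in the young hearts and at 104, 87.0 and 94.0 CPM in the aged hearts. The groups did not overlap, and young 15 was the young heart nearest to the aged ones. For Ifngr2 the log2 fold change was 1.14 ± 0.28 with an adjusted p-value of 0.092 in edgeR, and it was 1.52 ± 0.16 without young 15. Both genes passed the study's limits with any 1 heart left out.

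The type I receptor chains did not pass the limits. Ifnar1 was at 133, 121 and 136 CPM in the young hearts and at 228, 149 and 158 CPM in the aged hearts, a log2 fold change of 0.46 ± 0.23. Ifnar2 was at 38.6, 37.3 and 34.5 CPM in the young hearts and at 64.8, 42.2 and 47.4 CPM in the aged hearts, a log2 fold change of 0.48 ± 0.21. For both genes the groups did not overlap, and aged 3 was well above the other aged hearts. Ifnar2, Ifnar1 and Ifngr2 lie in that order on the same strand of chromosome 11, with 81556 and 30278 bases between them.

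**Figure D2:**
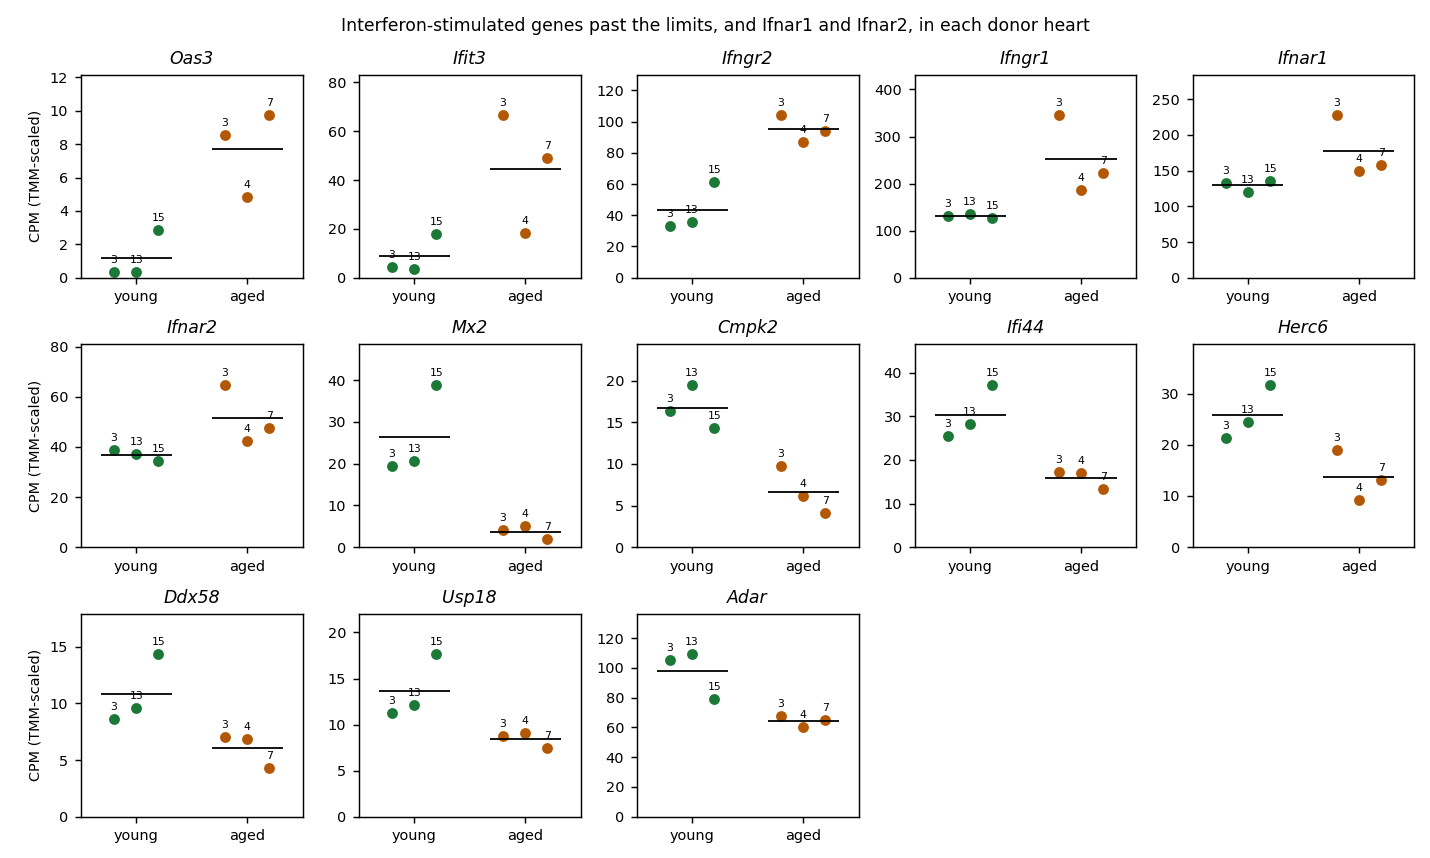
Expression of the called interferon-stimulated genes and of Ifnar1 and Ifnar2 in each heart (y axis, CPM on a scale of its own in each panel, points are single hearts and lines are group means). In every panel the 3 aged hearts lie on one side of the 3 young hearts, most narrowly in Ifit3, where young 15 is at 18.0 CPM and aged 4 at 18.5 CPM.

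Downstream of the receptors, a list of interferon pathway genes that are not members was read in the same fit. It had 47 genes in the table, of which 34 were tested, and in aged donor hearts 11 of these were higher (32.4%, against 13.2% of all genes) and 3 lower (8.82%, against 19%). The median log2 fold change of the 34 was 0.75, beside 0.02 over all genes. Without young 15, 21 were higher (61.8%, against 26.9%) and 3 were lower (8.82%, against 24.2%). This list too was chosen with results known, and no test of it was run. Among the kinases, Jak2, which serves the interferon gamma receptor, was at 36.9, 30.5 and 127 CPM in the young hearts and at 177, 131 and 212 CPM in the aged hearts. Its log2 fold change was 1.42 ± 0.58 with young 15 next to the aged hearts, and 2.40 ± 0.28 without that heart. The call held in 1 of 6 fits that each left out 1 heart and was lost under scaling by library totals. Tyk2, a kinase of the type I receptor, had a log2 fold change of 0.60 ± 0.21 and a call that held in 2 of these 6 fits. Jak1, which serves both receptors, was at 0.16 ± 0.21 and did not pass the limits. Stat2, a transcription factor of the type I response, was at -0.10 ± 0.25.

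Of 13 pathway genes outside the list that sense nucleic acid or relay the signal, 4 were higher and 2 were lower. The shares over all genes were 13.2% and 19%. The higher ones were Tlr8, an endosomal receptor for RNA (log2 fold change 1.96 ± 0.68), Myd88, the adaptor of most Toll-like receptors (1.66 ± 0.44), Ikbke, a kinase that activates interferon regulatory factors (2.09 ± 0.55), and Traf3, a ubiquitin ligase of the same route (0.67 ± 0.24). The calls of Myd88 and Ikbke held in 6 of 6 fits that each left out 1 heart, and those of Tlr8 and Traf3 in 2. Without young 15 the log2 fold changes were 3.15 ± 0.34 for Tlr8, 2.28 ± 0.29 for Myd88 and 3.03 ± 0.21 for Ikbke. The lower ones were Mavs, the mitochondrial adaptor of RIG-I and MDA5, and Tlr3, the endosomal receptor for double-stranded RNA. Mavs was at 184, 209.6 and 54.1 CPM in the young hearts and at 30.2, 29.8 and 29.9 CPM in the aged hearts, a log2 fold change of -2.32 ± 0.50. The aged hearts were nearly equal, and young 15 lay between them and the other young hearts, as it did for the cardiomyocyte markers. Tlr3 was at 19.1, 19.4 and 20.2 CPM in the young hearts and at 14.1, 9.78 and 10.6 CPM in the aged hearts, a log2 fold change of -0.77 ± 0.21. For Tlr3, young 15 was no nearer to the aged hearts than the other young hearts were.

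Of 7 inhibitors of the pathway, 3 were higher (Socs3, Socs1 and Ptpn2), against 13.2% of all genes. The other 4 passed the limits in neither direction with all hearts. Ptpn6 was at 1.81 ± 0.81, Irf2 at 0.58 ± 0.22, Pias1 at 0.21 ± 0.21 and Ptpn11, a phosphatase, at -0.62 ± 0.35. Without young 15, 5 of the 7 were higher, against 26.9% of all genes, with Ptpn6 (3.44 ± 0.22) and Irf2 (0.76 ± 0.20) among them. Socs3, a feedback inhibitor of Janus kinases that is also induced by interleukin 6 family cytokines, was at 8.11, 8.58 and 27.7 CPM in the young hearts and at 91.6, 61.9 and 109 CPM in the aged hearts. Its log2 fold change of 2.56 ± 0.56 was the largest among these pathway genes, and it was 3.43 ± 0.31 without young 15. Socs1, the feedback inhibitor most closely tied to interferon signalling, was low, at 0.786, 1.34 and 1.36 CPM in the young hearts and at 5.75, 2.54 and 2.95 CPM in the aged hearts, a log2 fold change of 1.68 ± 0.45. Ptpn2, a phosphatase of Janus kinases, had a log2 fold change of 1.06 ± 0.25. In all 3 genes every aged heart was above every young heart.

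Of 10 tested genes outside the list that are known for their response to interferon gamma, 2 were higher and 1 was lower with all hearts. The shares over all genes were 13.2% and 19%. Without young 15, 7 of the 10 were higher and 1 was lower, against 26.9% and 24.2% of all genes. Nlrc5, an activator of class I antigen presentation genes, was 2.46-fold higher, with means of 7.13 ± 4.16 CPM in the young hearts and 17.6 ± 3.33 CPM in the aged hearts (SD, n = 3 each). B2m, the light chain of class I molecules, was higher too, at a log2 fold change of 0.83 ± 0.32. With 1 heart left out, the call of Nlrc5 held in 3 of 6 fits and that of B2m in 2. The chemokine Cxcl9, which draws activated T cells, was lower, at 9.56, 11.4 and 5.99 CPM in the young hearts and at 2.43, 1.33 and 1.34 CPM in the aged hearts, a log2 fold change of -2.40 ± 0.40. Its relative Cxcl10 was at 1.15, 1.14 and 6.57 CPM in the young hearts and at 3.71, 4.63 and 2.68 CPM in the aged hearts, so that young 15 was the highest heart. For Cxcl10 the log2 fold change was 0.30 ± 0.74 with all hearts, and without young 15 it was higher at 1.71 ± 0.37. Cxcl11 was at 0.11 ± 1.14. Summed markers of T and NK cells were at 39.6 to 91.1 CPM in the young hearts and at 112 to 171 CPM in the aged hearts, with 2 of 10 tested markers higher and no overlap of the sums.

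**Figure D3:**
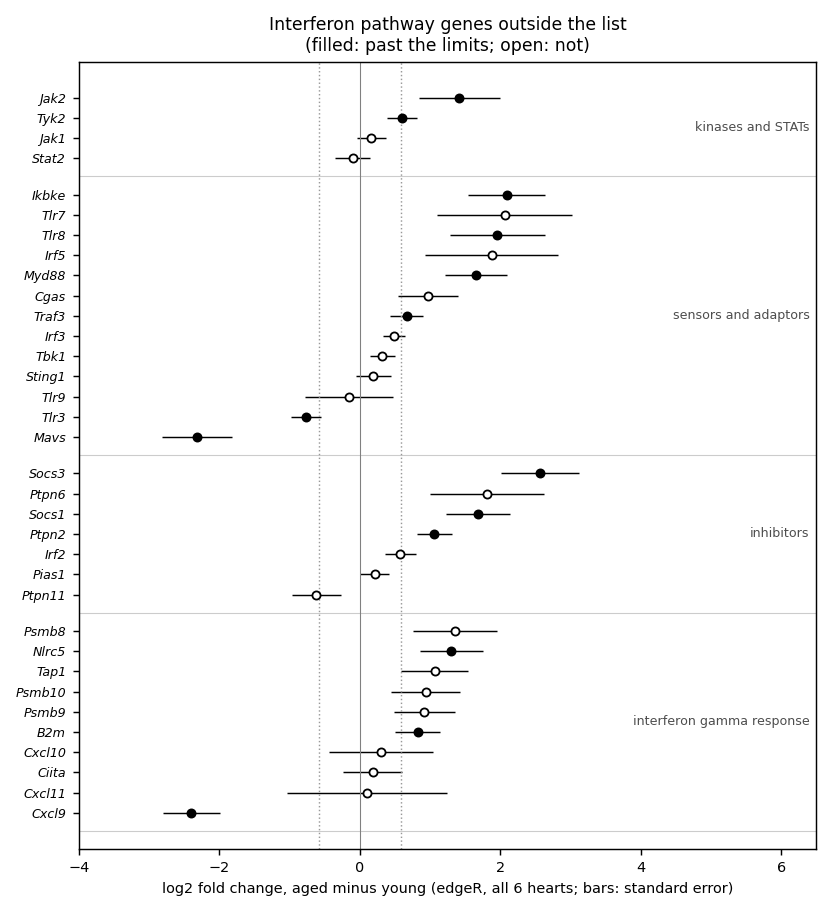
Log2 fold change of the tested interferon pathway genes that are not members of the list (x axis, aged minus young donor hearts, edgeR, bars are standard errors, dotted lines at the fold limits), in blocks by role. Socs3 lies farthest to the right at 2.56, and Cxcl9 and Mavs lie farthest to the left at -2.40 and -2.32.

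None of the 4 interferon regulatory factors on the list passed the limits with all hearts. Irf8, a factor of myeloid cells, was at 17.2, 16.8 and 76.7 CPM in the young hearts and at 99.5, 107 and 83.0 CPM in the aged hearts. Its groups did not overlap, and young 15 lay just under the aged hearts and far from the other young hearts. The log2 fold change was 1.39 ± 0.63 with all hearts, with an adjusted p-value of 0.168 in edgeR, and 2.54 ± 0.17 without young 15. Irf1, an early factor of the interferon gamma response, was at 0.62 ± 0.29 and overlapped between the groups, and without young 15 it was higher at 1.01 ± 0.18. Irf9, the DNA-binding part of the type I complex, was at 0.02 ± 0.25. Irf7, the factor that amplifies type I interferon production, was at -0.49 ± 0.33, with its highest value of 48.9 CPM in young 15 and 20.4 to 27.6 CPM in the other 5 hearts.

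The sensors and RNA-editing genes on the list included 2 of 6 that were lower and none of these 6 that was higher by the study's limits. The shares over all genes were 19% and 13.2%. Ddx58, which encodes the viral RNA sensor RIG-I (ENSRNOG00000006384, chromosome 5, 56500734 to 56536772, minus strand), was at 8.59, 9.60 and 14.3 CPM in the young hearts and at 7.0, 6.86 and 4.33 CPM in the aged hearts. The groups were close at their edges but did not overlap. For Ddx58 the log2 fold change was -0.84 ± 0.32 with an adjusted p-value of 0.126 in edgeR and -0.55 ± 0.28 without young 15, and the call held in 1 of 6 fits that each left out 1 heart. Adar, which edits adenosine in double-stranded RNA (ENSRNOG00000020744, chromosome 2, 189062443 to 189083236, plus strand), was at 105, 109 and 78.8 CPM in the young hearts and at 67.5, 60.5 and 64.7 CPM in the aged hearts. Here young 15 was the lowest young heart. For Adar the log2 fold change was -0.60 ± 0.19 with an adjusted p-value of 0.098 in edgeR and -0.70 ± 0.14 without young 15, and the call held in 2 of those 6 fits. Ifih1, the sensor MDA5, was at 0.21 ± 0.20. Eif2ak2, the RNA-activated kinase PKR, was at -0.05 ± 0.29, Dhx58, the sensor LGP2, at -0.05 ± 0.52 and Zbp1, a sensor of Z-form nucleic acid, at 0.35 ± 0.67, and none of these 4 passed the limits. Without young 15, Dhx58 was at 0.72 ± 0.33 and Zbp1 at 1.33 ± 0.58, and neither passed the limits there.

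The oligoadenylate synthetases, which make the messenger that activates the nuclease RNase L, held the member with the largest rise. Oas3 (ENSRNOG00000059207, chromosome 12, 41316764 to 41336562, plus strand) was at 0.363, 0.318 and 2.85 CPM in the young hearts and at 8.54, 4.85 and 9.73 CPM in the aged hearts. These levels rest on 6, 5 and 69 reads in the young hearts and on 260, 128 and 254 reads in the aged hearts. Every aged heart was above young 15, and young 15 was above the other young hearts. The log2 fold change was 2.66 ± 0.88 with an adjusted p-value of 0.104 in edgeR, it was 4.52 ± 0.49 without young 15, and the call held in 4 of 6 fits that each left out 1 heart.

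Oas2 lies 4253 bases beyond Oas3 on the same strand, and its hearts were ordered in another way. It had 9, 4 and 131 reads in young 3, 13 and 15 and 83, 66 and 88 reads in aged 3, 4 and 7, so young 15 was the highest of the 6 hearts. Its log2 fold change was 0.44 ± 1.01 with all hearts and 2.86 ± 0.47 without young 15. Oasl and Oasl2, which belong to a related family, were at 1.31 ± 0.75 and 0.32 ± 0.63, and at 2.64 ± 0.46 and 1.47 ± 0.24 without young 15. Oas1a was at 0.09 ± 0.42. Oas1a belongs to a cluster of near-identical copies in the rat, among which reads may be divided, so its value is uncertain.

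Of the IFIT genes, whose proteins bind foreign RNA and hold back its translation, Ifit3 was higher. Ifit3 (ENSRNOG00000022839, chromosome 1, 252906234 to 252911382, plus strand) was at 4.36, 3.75 and 18.0 CPM in the young hearts and at 66.6, 18.5 and 48.9 CPM in the aged hearts. The aged hearts were widely spread, and the lowest of them barely exceeded young 15. For Ifit3 the log2 fold change was 2.35 ± 0.77 with an adjusted p-value of 0.103 in edgeR, it was 3.50 ± 0.61 without young 15, and the call held in 3 of 6 fits that each left out 1 heart. Ifit1, its neighbour, was at 1.04 ± 0.59 with 40.2, 7.85 and 23.7 CPM in the aged hearts. Ifit2, which lies 5508 bases before Ifit3 on the same strand, was at -0.49 ± 0.31. The IFIT genes are similar in sequence and reads may be shared among them.

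The lowest log2 fold change of the list belonged to a restriction factor. Mx2, a dynamin-like antiviral GTPase (ENSRNOG00000001963, chromosome 11, 38035450 to 38059950, plus strand), was at 19.5, 20.5 and 38.9 CPM in the young hearts and at 4.01, 5.19 and 2.07 CPM in the aged hearts. All 3 aged hearts were far below all 3 young hearts, and young 15 was the highest of the 6. For Mx2 the log2 fold change was -2.81 ± 0.46 with an adjusted p-value of 0.092 in edgeR and -2.38 ± 0.38 without young 15. Mx1, its paralog in head-to-head position 120467 bases away, was at 2.90, 2.48 and 22.1 CPM in the young hearts and at 8.77, 11.1 and 3.68 CPM in the aged hearts. Young 15 was the highest heart for Mx1 too, but the other young hearts were the lowest ones. The log2 fold change of Mx1 was -0.23 ± 0.92 with all hearts and 1.58 ± 0.51 without young 15. The paralogs therefore had opposite signs without that heart, though reads may be divided between them.

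Cmpk2, a mitochondrial nucleotide kinase (ENSRNOG00000007690, chromosome 6, 45683234 to 45694822, plus strand), was at 16.4, 19.5 and 14.3 CPM in the young hearts and at 9.75, 6.14 and 4.10 CPM in the aged hearts. The groups did not overlap and the young hearts lay close together. The log2 fold change was -1.33 ± 0.36 with an adjusted p-value of 0.092 in edgeR and -1.39 ± 0.37 without young 15. Rsad2, which encodes viperin and lies head to head with Cmpk2 at a distance of 14086 bases, was at 27.5, 30.1 and 28.6 CPM in the young hearts and at 27.9, 5.19 and 11.3 CPM in the aged hearts. Its young hearts were nearly equal and aged 3 was among them, and at -0.96 ± 0.57 it did not pass the limits.

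None of the 5 other restriction factors passed the limits with all hearts. Ifitm1 and Ifitm3, membrane proteins that block entry of enveloped viruses, were at 1.38 ± 0.74 and 0.64 ± 0.39 with all hearts, and at 2.79 ± 0.29 and 1.20 ± 0.21 without young 15. Samhd1, which degrades deoxynucleotides, was at 0.80 ± 0.37 and, without young 15, at 1.19 ± 0.32. Isg20, an exonuclease, was low at 1.34 to 2.64 CPM with no overlap between the groups, at 0.68 ± 0.30. Bst2, known as tetherin, was at 0.07 ± 0.33.

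The ISG15 system, a ubiquitin-like tag with its enzymes, had 2 of 3 members lower, against 19% of all genes. Usp18, which removes ISG15 and also restrains the type I receptor (ENSRNOG00000037198, chromosome 4, 153805993 to 153834430, plus strand), was at 11.3, 12.1 and 17.6 CPM in the young hearts and at 8.74, 9.14 and 7.47 CPM in the aged hearts. Herc6, a ubiquitin ligase family member that attaches ISG15 in mice (ENSRNOG00000023969, chromosome 4, 88607518 to 88649216, minus strand), was at 21.3, 24.4 and 31.7 CPM in the young hearts and at 19.0, 9.25 and 13.1 CPM in the aged hearts. For both genes the groups did not overlap and young 15 was the highest heart. Their log2 fold changes were -0.69 ± 0.25 and -0.91 ± 0.32, and without young 15 they were -0.43 ± 0.19 and -0.69 ± 0.32 and no longer passed the limits. Isg15 itself was at 5.69, 5.02 and 10.4 CPM in the young hearts and at 6.54, 6.52 and 6.05 CPM in the aged hearts, a log2 fold change of -0.15 ± 0.33. Its aged hearts lay between young 15 and the other young hearts.

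No TRIM or PARP ligase and no guanylate-binding protein passed the limits with all hearts. Trim21, Trim25, Parp9, Parp14 and Dtx3l ranged from -0.18 (Trim25) to 0.44 (Parp9), and without young 15 Parp9 was higher at 0.82 ± 0.21. Parp9 and Dtx3l, whose proteins work as a pair, lie head to head with 1129 bases between them. The guanylate-binding proteins, GTPases that attack vacuoles of intracellular pathogens, ranged from -0.65 ± 0.37 (Gbp5) to 0.40 ± 0.51 (Gbp2). Gbp1 had the largest standard error of the members, with values from 0.328 CPM in aged 3 to 20.3 CPM in aged 7 and a log2 fold change of -0.07 ± 1.14, and reads may be shared within this family.

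Of the 8 remaining members, 1 was lower, against 19% of all genes. Ifi44, an interferon-induced protein of uncertain function (ENSRNOG00000022218, chromosome 2, 256897772 to 256915569, minus strand), was at 25.5, 28.2 and 37.2 CPM in the young hearts and at 17.1, 17.1 and 13.3 CPM in the aged hearts. The groups were clearly apart, and the spread within each was small beside the gap except for young 15. For Ifi44 the log2 fold change was -0.94 ± 0.22 with an adjusted p-value of 0.092 in edgeR and -0.73 ± 0.18 without young 15. Ifi44l, its head-to-head neighbour, had nearly the same log2 fold change, -0.92 ± 0.42, and its groups did not overlap, but it did not pass the limits. Xaf1, Ifi35, Nmi and Sp100 ranged from 0.03 to 0.45. Lgals9, a galectin, was at -0.46 ± 0.20 without overlap.

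Young 15 held higher levels of most members than the other young hearts did. It was above both of them in 43 of the 51 members and below both in 7, for which the shares over all genes were not taken. In 20 members (39.2%) it was the highest of the 6 hearts, against 9.81% of all genes tested, and in 24 (47.1%) it was above every aged heart, against 29.6% of all genes. Its log2 CPM exceeded the mean of young 3 and 13 by a median of 0.75 over the members and of 0.02 over all genes tested. The median log2 CPM of the members was 4.11 and 4.23 in young 3 and 13, 4.96 in young 15, and 4.77, 4.10 and 4.42 in aged 3, 4 and 7. The medians over all genes tested lay between 4.44 and 4.53. The aged hearts also differed among themselves, with aged 3 the highest of them in 37 of the 51 members. How often aged 3 was the highest over all genes was not counted, so whether this is particular to the members is not known. Aged 3 also had the highest summed neutrophil and macrophage markers and the lowest summed cardiomyocyte markers.

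**Figure D4:**
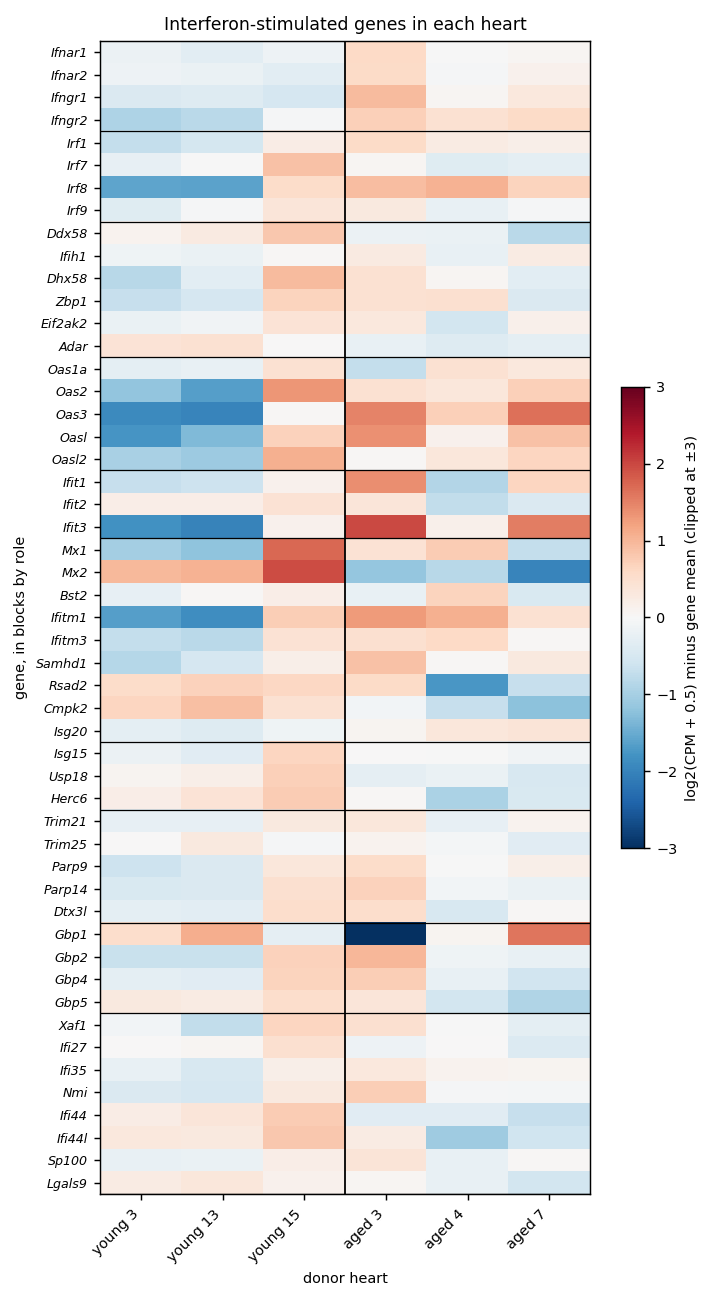
Level of the 51 interferon-stimulated genes (rows, in blocks by role) in each heart (columns), as log2(CPM + 0.5) minus the gene's mean over the 6 hearts, with red above and blue below that mean and colours limited to 3 on either side. The column of young 15 is red in most rows, while young 3 and 13 resemble each other and are blue in the rows of the oligoadenylate synthetases, Ifit3, Ifitm1 and Irf8.

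Leaving out young 15 changed what the list showed. Against young 3 and 13, 17 members were higher (33.3%, against 26.9% of all 14109 genes tested) and 4 were lower (7.84%, against 24.2%). A positive log2 fold change was seen in 35 members (68.6%, against 52.7% of all genes), and the median over the members was 0.48, beside 0.07 over all genes. In that fit 19 members had an adjusted p-value under 0.05 in edgeR, 15 of them positive and 4 negative, against 48.3% of all genes. This fit assumes that 2 young hearts give the spread of their group, and young 15 was singled out from its levels in these same data. The 4 higher members of the fit with all hearts stayed among the 17, joined by Irf1, Irf8, Oas2, Oasl, Oasl2, Ifitm1, Ifitm3, Samhd1, Isg20, Parp9, Gbp2, Nmi and Mx1. The 4 lower members, Mx2, Cmpk2, Ifi44 and Adar, had been lower with all hearts too. The sign changed in 5 members, Dhx58, Eif2ak2, Mx1, Isg15 and Gbp4.

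The calls that did not turn on any single heart were those of Ifngr1, Ifngr2, Mx2, Cmpk2 and Ifi44, which held in all 6 fits that each left out 1 heart. Of these, Cmpk2 and Ifi44 did not pass the limits under scaling by library totals alone, with log2 fold changes of -0.83 and -0.53 there. Relative to the median of all genes in each fit, their values were -1.34 and -0.96 under TMM and -1.29 and -0.99 under library totals. Oas3 held in 4 fits, Ifit3 in 3, Adar, Usp18 and Herc6 in 2 each, and Ddx58 in 1.

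Members near each other in the genome did not always move alike. Neighbouring members no more than 200000 bases apart formed 15 pairs in the Rnor_6.0 coordinates of the table. In no pair did both genes pass the limits, while 8 of the 15 pairs held 1 gene that did. Oas3 and Ifit3 are each counted in more than 1 of these pairs. Only 21.6% of the members had an unadjusted p-value under 0.05 in edgeR, so pairs with both genes called would be few. The pairs were not compared with other neighbouring genes, and these counts are no result about the members. Ifi44 with Ifi44l, Rsad2 with Cmpk2 and Mx1 with Mx2 are head-to-head pairs with both log2 fold changes negative. Parp9 with Dtx3l is a head-to-head pair with both positive (0.44 and 0.06). Ifit2 with Ifit3 (-0.49 and 2.35) and Mx1 with Mx2 (-0.23 and -2.81) are examples of neighbours that lay far apart on the log2 scale.

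Levels between genes were compared by the deposited FPKM, which divides reads by gene length and library total. The members with the highest mean FPKM were Ifitm3, Ifitm1 and Ifi27. Ifitm3 was at 89.1, 79.7 and 279.8 FPKM in the young hearts and at 331, 326 and 228 FPKM in the aged hearts. Ifitm1 was at 22.7, 18.5 and 171 FPKM in the young hearts and at 283, 223 and 149 FPKM in the aged hearts. In both genes young 15 lay within the aged hearts and well above the other young hearts. Ifi27, a small membrane protein gene that many tissues express, was at 96.1, 94.5 and 189 FPKM in the young hearts and at 137, 140.4 and 108 FPKM in the aged hearts. Mean FPKM of Ifi27 was 126 in young and 128 in aged donor hearts, while on the TMM scale its CPM was lower in every aged heart than in every young heart, with a log2 fold change of -0.38 ± 0.22 that turned to 0.02 under library totals. At the other end, Oas2 and Zbp1 had the lowest means over the 6 hearts, 0.95 and 0.50 FPKM.

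Cells that could supply these transcripts were read by markers beside the members. Plasmacytoid dendritic cells are a known source of type I interferon, and the sum of their 5 markers was 151 to 224 CPM in the young hearts and 209.6 to 292 CPM in the aged hearts, with 1 of 5 higher. That sum includes Bst2 and Irf8, which are members of the list, and the defining marker Siglech did not exceed 1.02 CPM in any heart. Summed endothelial markers were at 1448 to 1984 CPM in the young hearts and at 1405 to 1985 CPM in the aged hearts, with 0 of 6 past the limits. Fibroblast markers were at 6253 to 7810 CPM in the young hearts and at 2020 to 4146 CPM in the aged hearts, with 2 of 6 lower. Over all genes 13.2% were higher and 19% lower. The fibroblast sum did not overlap between the groups and was not shifted toward the aged hearts in young 15. B cell markers summed to no more than 6.90 CPM in any heart. The part of any of these cells in the members' levels was not tested.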

How the data were processed

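Polyadenylated RNA of left ventricular myocardium was sequenced from 3 young and 3 aged donor hearts. The authors deposited a single table with raw read counts and FPKM values for each gene and heart. Counts were used as deposited, without normalization. Each FPKM value made by the authors equals reads over gene length and library total, which held within a relative tolerance of 0.001 for all but 1 of 133500 values. The submitters' processing notes list HISAT2 2.0.5, StringTie 1.3.3b, featureCounts 1.5.0-p3, DESeq2 1.16.1 and GATK 3.7 with the Rnor_6.0 build, without the role of each. Use of strand in counting is not given in the sources used here, so reads of overlapping genes and near-identical copies are uncertain.

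The whole table of counts was fitted with edgeR 4.0.16 (R 4.3.3). Genes were kept by filterByExpr (13784 of 22250, where 4664 of the genes left out had no read in any heart), libraries were scaled by TMM, and groups were compared by the quasi-likelihood test without covariates. P-values were adjusted over all genes tested (Benjamini-Hochberg), and standard errors were taken as the log2 fold change over the square root of F. Log2 CPM used a prior count of 2. An exact permutation test, two-sided over the 20 assignments of hearts, was added for single genes in Python 3.11.15 with scipy 1.17.1. Alternatives used DESeq2 1.42.0, limma-voom (limma 3.58.1), other scalings and filters, and each heart left out. The steps were tested on simulated data. Nothing in the labels says how the hearts were assigned to litters or runs, so p-values measure the spread between these hearts.

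Values by heart are given for members past the study's limits with a mean of at least 1 CPM, the 4 receptors and the 3 members with the highest mean FPKM. Other members with values by heart, such as Irf8, Oas2, Mx1, Rsad2 and Isg15, were chosen after their values were seen. One pathway gene is not reported here and was left out of the counts. Pathway genes past the limits are named, and others named with values were chosen after those were seen. The members, gene lists and markers were chosen with earlier results of these data known. Promoters came from RefSeq (GRCr8), with 13 members unmatched.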

Additional observations from a re-analysis of the deposited data

How the results depend on the processing

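No paired analysis was made, because nothing in the labels links a young donor heart to an aged one. With 1 heart left out at a time, 2 to 17 members were higher and 3 to 10 were lower, and 5 to 21 of the pathway genes outside the list were higher. The count of higher members was 17 without young 15 and 2 without young 3. Over all genes, 3802 of 14109 were higher without young 15 and 817 of 14024 without young 3, against 1815 of 13784 with all hearts. The count of lower members was 10 without aged 3, 4 without young 13 or young 15, and 3 without aged 4 or aged 7. Lower genes over the whole table were 2067 of 14033 without aged 3, 1633 of 14060 without young 13 and 3412 of 14109 without young 15. They were 2160 of 14089 without aged 4 and 1924 of 14083 without aged 7, against 2621 of 13784 with all hearts. Higher pathway genes numbered 21 without young 15, 6 without young 3 or aged 3, 5 without young 13 and 7 without aged 4. Over all genes, 1048 of 14033 were higher without aged 3, 862 of 14060 without young 13 and 1404 of 14089 without aged 4. Scaling by library totals alone gave 8 higher and 1 lower members, against 22.8% and 10.5% of all genes. DESeq2's Wald test gave 17 higher pathway genes, where 2148 of all 13784 genes were higher. An adjusted p-value under 0.05 in edgeR left 0 members higher and 0 lower, 0 pathway genes higher and 0 lower, and 0% of all genes. Every other scaling, filter and tool tried left the counts of members and pathway genes within 1.5 times of their values. The median log2 fold change of the list ran from -0.04 to 0.48 with 1 heart left out.

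Signs of small log2 fold changes turned under library totals for Dhx58 (0.27), Eif2ak2 (0.36), Gbp1 (0.44), Gbp4 (0.36), Ifi27 (0.0225), Isg15 (0.22), Lgals9 (0.0056) and Trim25 (0.29), where the median of all genes was 0.46. They turned under limma-voom for Bst2 (-0.00624), Dhx58 (0.0728), Mx1 (0.25) and Oas1a (-0.0203), and for Gbp4 (0.00208) with no filter beyond 1 read. With 1 heart left out, the range crossed 0 for Irf9 (-0.14 to 0.27), Dhx58 (-0.38 to 0.72), Eif2ak2 (-0.22 to 0.20), Oas1a (-0.14 to 0.43), Oas2 (-0.0692 to 2.86), Oasl2 (-0.0303 to 1.47), Mx1 (-0.68 to 1.58), Bst2 (-0.35 to 0.29), Isg15 (-0.34 to 0.29), Trim21 (-0.0152 to 0.38), Parp14 (-0.0639 to 0.69), Dtx3l (-0.22 to 0.44), Gbp1 (-1.42 to 0.51), Gbp2 (-0.11 to 1.04), Gbp4 (-0.60 to 0.54), Xaf1 (-0.26 to 0.53) and Sp100 (-0.0157 to 0.35). None of these genes passed the limits with all hearts, and the cause was not tested.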
